A study of Homo sapiens with 9 samples.

Results

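The H3K4me3 peaks of 2000 bp and over, here called broad domains, numbered 897 among 16997 H3K4me3 peaks on chromosomes 1 to 22 and X. They were chosen by their deposited width alone, so their width, and every other H3K4me3 value that goes with it, is given as a description and not as a finding. The cells were A549, an epithelial line from a human lung adenocarcinoma, profiled by CUT&Tag, in which an antibody guides a transposase to its targets in chromatin and the cut fragments are sequenced. Of 3 groups of 3 libraries each, the HA-BAZ2B group was cells with an HA tag inserted at the 5′ end of the endogenous BAZ2B gene, profiled with an anti-HA antibody. The WT group was untagged cells profiled with the same antibody, which lack the HA tag, so that their peaks give the background of the assay. The H3K4me3 group was the tagged cells again, profiled with an antibody against the histone mark. Per the labels' protocols, 35 ng of Drosophila chromatin was added as a spike-in, and an siRNA transfection and a G-quadruplex CUT&Tag are mentioned without being tied to any of these libraries. The antibodies named here follow the titles and sample labels. The labels do not say whether the tagged line is 1 clone.

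H3K4me3 is the trimethylated form of lysine 4 of histone H3, laid down at active promoters by SET1 and MLL complexes. Most promoters carry it in a short stretch around the transcription start. A minority carry it in a broad domain that runs into the gene body. In many cell types such domains are known to lie at genes of cell identity and at tumour suppressors, where transcription is steady. Whether the peaks of 2000 bp and over counted here lie at such genes was not examined. BAZ2B is a bromodomain and PHD finger protein that partners ISWI ATPases, motors that slide nucleosomes along DNA. The series title places BAZ2 proteins in the suppression of G-quadruplexes, four-stranded structures of guanine-rich DNA that form at many promoters. The comparisons here ask how the anti-HA peaks of tagged and of untagged cells lie on the broad domains.

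Each list held the rows of 1 library (replicate 3 for HA-BAZ2B, replicate 2 for WT, replicate 1 for H3K4me3), kept where at least 2 replicates had the peak. Values per replicate were not used here, library depth is unknown, and every comparison below is a description without a test. Intervals beside shares are exact 95% binomial intervals, those beside medians are exact order-statistic intervals, and those beside differences combine the intervals of the 2 shares by the square-and-add method. All cover counting error over peaks only. The peak names of the WT and H3K4me3 libraries share a tag that the HA-BAZ2B names lack, and what the tag means was not stated in any label. Domains are given by cytogenetic band and by position on hg19, without gene names, because no gene annotation on that build was used here.

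Broad domains were wide and shallow. Their median width was 2228 bp (interquartile range 2094 to 2465 bp), and the widest spanned 3988 bp. They made up 5.28% of the H3K4me3 peaks and 10.6% of the base pairs in them. The median fold enrichment over the authors' background estimate was 5.57 in broad domains and 9.22 in the 9457 H3K4me3 peaks of 1000 bp to under 2000 bp, here called intermediate peaks. That placed the median domain at percentile 11.6 of its list by fold enrichment, yet at percentile 49.8 by −log10 q, the peak caller's measure of significance. The rule drew a line through a continuous range. Domains of exactly 2000 bp lay at 14q13.2, 19q13.33 and 6q27 with H3K4me3 fold enrichments of 5.95, 6.15 and 7.58 and no anti-HA peak. Peaks 1 bp narrower, and so left out, lay at 19p13.3, 6p22.1 and 17q21.32 with 4.06, 6.49 and 7.34, the second with HA-BAZ2B and the third with both kinds of anti-HA peak.

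An HA-BAZ2B peak lay on 586 of the 897 broad domains (65.3%, 62.1 to 68.4%), against 39.6% of all H3K4me3 peaks. A WT peak lay on 241 domains (26.9%, 24.0 to 29.9%), against 13.1% of all H3K4me3 peaks. Both lists had a peak on 230 domains (25.6%, 22.8 to 28.6%), against 11.3%. HA-BAZ2B alone was found on 356 domains (39.7%, against 28.3% of all H3K4me3 peaks), WT alone on 11 (1.23%, against 1.78%), and neither on 300 (33.4%, against 58.7%). Of the 241 domains with a WT peak, 95.4% (92.0 to 97.7%) also had HA-BAZ2B, and of the 656 without, 54.3% did (50.4 to 58.1%). Over all H3K4me3 peaks these shares were 86.4% with a WT peak and 32.5% without. The HA-BAZ2B share is therefore not a share net of the untagged background.

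Set beside the next width class taken whole, broad domains carried anti-HA peaks of both lines more often. The HA-BAZ2B share was 65.3% in broad domains and 50.9% in intermediate peaks (49.9 to 51.9%), a difference of 14.5 percentage points (11.1 to 17.7). The WT share was 26.9% in broad domains and 15.4% in the intermediate peaks (14.7 to 16.2%), a difference of 11.5 points (8.48 to 14.6). Most intermediate peaks (6561 of 9457) were under 1500 bp wide. In the 2896 peaks of 1500 to under 2000 bp, the HA-BAZ2B share was 61.1% (59.3 to 62.9%). That interval overlaps the one of broad domains (62.1 to 68.4%). The WT share of these peaks was 21.0% (19.5 to 22.5%), below the interval of broad domains (24.0 to 29.9%). The HA-BAZ2B difference from the intermediate peaks did not hold in a shorter list. With the list limited to the 2381 peaks of highest −log10 q, the number in the WT list, the share was 14.7% in broad domains and the difference turned to −7.07 points (−9.48 to −4.44). That limit changes the length of the list and the significance of its peaks together. Over all HA-BAZ2B peaks, the HA-BAZ2B peaks of broad domains stood at a median percentile of 45.9 by −log10 q and those of intermediate peaks at 58.8. The WT peaks stood the other way round in their own list, at 66.9 in broad domains and 51.3 in intermediate peaks.

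The shares did not climb evenly with width. HA-BAZ2B peaks lay on 8.28% of H3K4me3 peaks under 500 bp, 23% of those from 500 to under 1000 bp, 46.3% of those from 1000 to under 1500 bp and 61.1% of those from 1500 to under 2000 bp. Within the broad domains, in 4 classes of rising width, the share was 66.3% in 475 domains, 61.8% in 217, 65.3% in 170 (2500 to under 3000 bp) and 74.3% from 3000 bp on, with intervals that all overlap (the last 56.7 to 87.5%, over 35 domains). The WT share was 21.0% from 1500 to under 2000 bp, 26.3%, 25.8% and 26.5% in the first 3 classes of broad domains, and 42.9% (26.3 to 60.6%) from 3000 bp on. The HA-BAZ2B share thus lay between 61.1% and 74.3% in every class above 1500 bp.

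**Figure D1:**
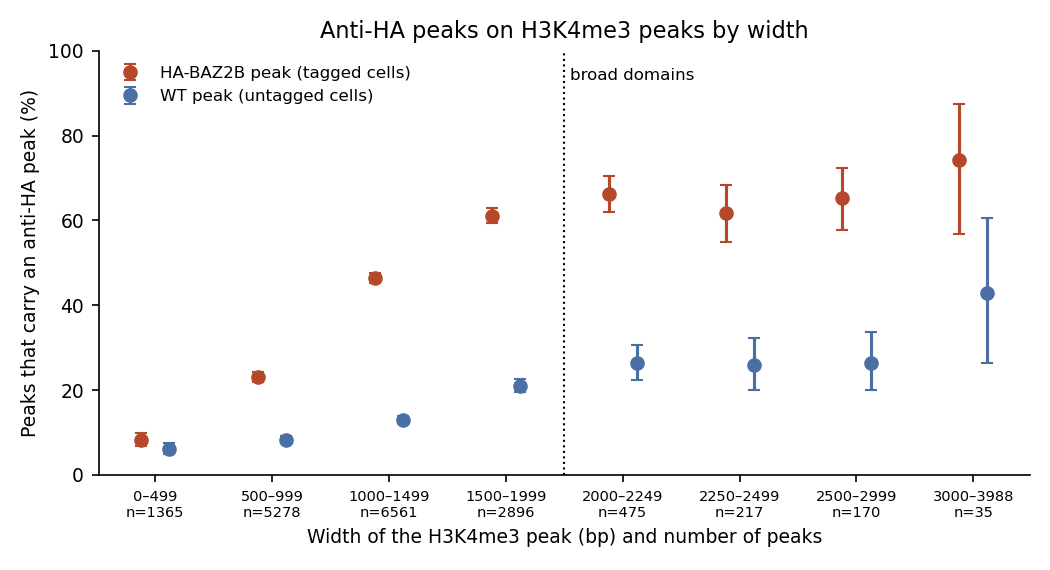
Share of H3K4me3 peaks (y axis, percent) that carry an HA-BAZ2B peak or a WT peak, by the width of the H3K4me3 peak in bp (x axis, with the number of peaks in each class); bars are exact 95% binomial intervals. The HA-BAZ2B share climbs to 61.1% at 1500 to under 2000 bp and lies between 61.8% and 74.3% in the 4 classes of broad domains, and the WT share lies below it in every class.

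At like significance of the H3K4me3 peak, broad domains still carried both kinds of anti-HA peak more often. Broad domains and intermediate peaks were put together in 5 groups of equal size by H3K4me3 −log10 q. In the lowest group the HA-BAZ2B share was 41.2% (35.6 to 47.0%) in 301 broad domains and 20.9% (19.0 to 22.8%) in 1772 intermediate peaks. In the middle group it was 83.9% (77.6 to 89.0%) in 174 broad domains and 50.4% (48.1 to 52.7%) in 1896 intermediate peaks. In the highest group it was 97.2% (85.5 to 99.9%) in 36 broad domains and 77.4% (75.6 to 79.2%) in 2035 intermediate peaks.

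The WT shares were ordered in the same way. They were 10.3% (7.11 to 14.3%) in broad domains and 6.09% (5.03 to 7.31%) in intermediate peaks in the lowest group. In the middle group they were 33.9% (26.9 to 41.5%) in broad domains and 12.2% (10.7 to 13.7%) in intermediate peaks. In the highest group they were 55.6% (38.1 to 72.1%) in broad domains and 30.3% (28.3 to 32.3%) in intermediate peaks. In the lowest group the WT intervals of the 2 classes overlap, and in the other 4 they do not. Neither class is scaled for its number of bases: a wider peak offers more length to overlap, and the part of this in the shares was not tested. The intermediate peaks were not split by width in these groups, so their 1500 to under 2000 bp peaks were not set apart.

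**Figure D2:**
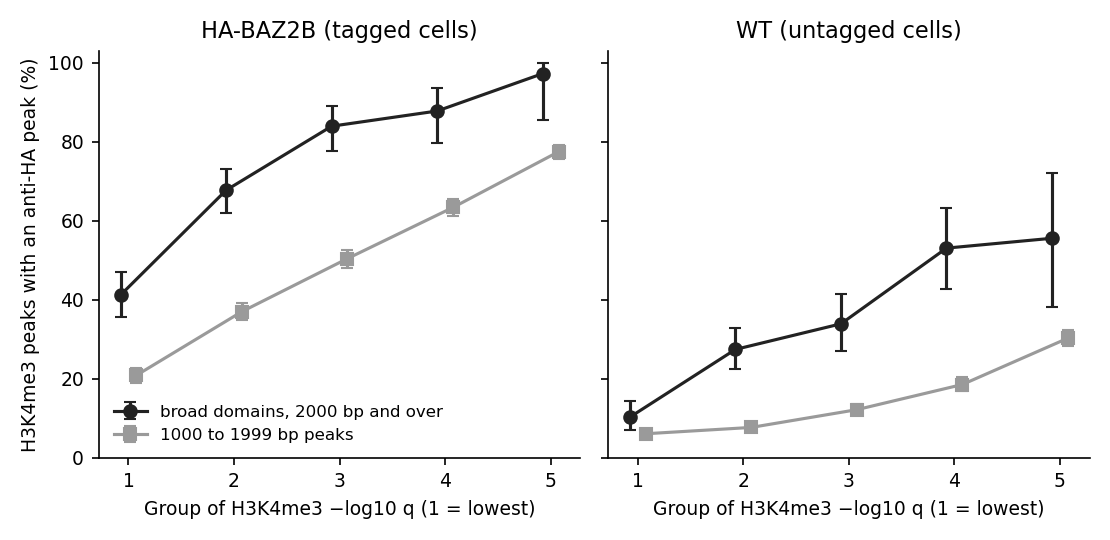
Share of H3K4me3 peaks (y axis, percent) with an HA-BAZ2B peak (left panel) or a WT peak (right panel) in 5 groups by H3K4me3 −log10 q (x axis, lowest to highest), for broad domains in black and intermediate peaks in grey; bars are exact 95% binomial intervals. Broad domains lie above the intermediate peaks in each group of both panels, from 41.2% against 20.9% for HA-BAZ2B in the lowest group to 97.2% against 77.4% in the highest.

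Where a broad domain carried HA-BAZ2B, the signal filled it. HA-BAZ2B peaks covered a median of 89.8% of the domain (88.6 to 91.5%, interquartile range 78.8 to 97.0%) and at least 75% of it in 470 of 586 domains (80.2%, 76.7 to 83.4%). In intermediate peaks the median cover was 89.7%, close to that of broad domains. Among the broad domains it fell with width, from 92.7% in the narrowest of the 4 classes through 88.8% and 86.5% to 81.5% from 3000 bp on. WT peaks covered a median of 37.1% of a broad domain (34.5 to 40.3%), and at least 75% in 8 of 241 domains (3.32%, 1.44 to 6.44%). In intermediate peaks, WT peaks covered a median of 45.9% (44.8 to 47.3%). Summed over all 897 domains, HA-BAZ2B peaks covered 55.0% of the base pairs and WT peaks 10.3%.

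A covered length cannot exceed the width of the H3K4me3 peak, which the rule used, so the lengths below are descriptions. The median length covered by HA-BAZ2B peaks was 2004.5 bp in broad domains and 1227 bp in intermediate peaks. The median length covered by WT peaks was 855 bp in broad domains and 664.5 bp in the intermediate peaks. Across the 586 domains with HA-BAZ2B, domain width and covered length had a Spearman rho of 0.41, and across the 241 domains with WT a rho of 0.02. In intermediate peaks the rho was 0.82 for HA-BAZ2B (4811 peaks) and 0.28 for WT (1458 peaks). The rho of HA-BAZ2B in broad domains was 0.68 with a minimum width of 1500 bp and 0.25 with one of 2500 bp. All points of a list share 1 library. The median −log10 q was 27.0 for the HA-BAZ2B peaks of broad domains and 13.5 for the WT peaks, 2 values on no common scale.

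**Figure D3:**
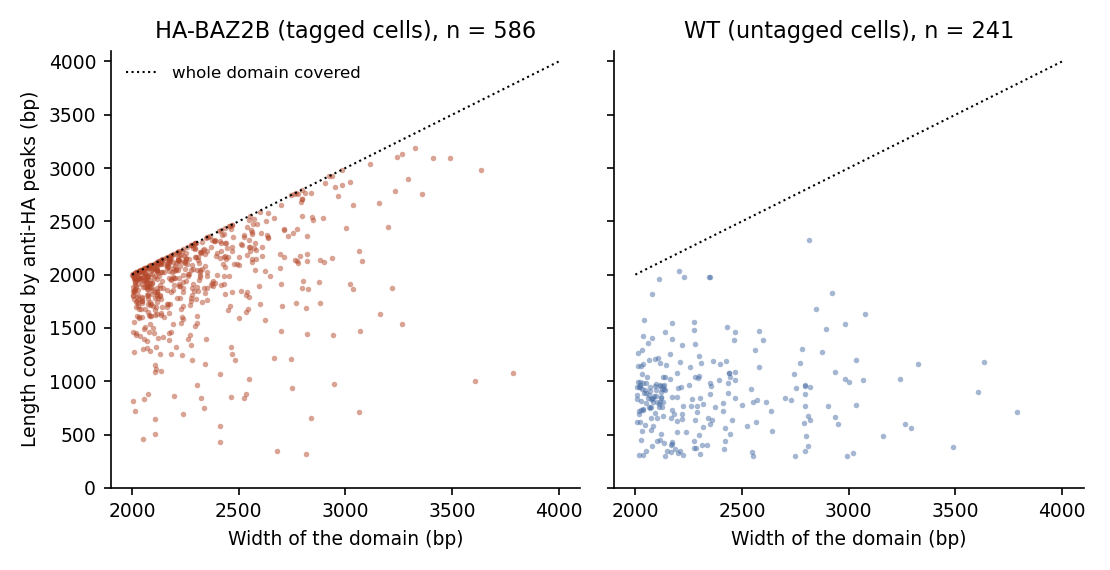
Length of each broad domain covered by anti-HA peaks (y axis, bp) against the width of the domain (x axis, bp), for HA-BAZ2B (left, 586 domains) and WT (right, 241 domains); each point is 1 domain and the dotted line marks a domain covered whole. HA-BAZ2B points crowd below the line with a tail of partly covered domains, and the middle 50% of the WT points lie between 637 and 1064 bp.

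Anti-HA peaks of the 2 lists ended at different places in the domains. Of 569 domains with a single HA-BAZ2B peak, 65 had a peak that ran past both edges, 319 past 1 edge, and 185 (32.5%, 28.7 to 36.5%) lay inside both edges. A single WT peak lay inside both edges in 212 of 235 domains (90.2%, 85.7 to 93.7%) and ran past both in none, which allows a share of up to 1.56% by the upper bound of its interval. Intermediate peaks had close shares: 35.6% of single HA-BAZ2B peaks and 88.7% of single WT peaks lay inside both edges. Over the whole lists, the median peak width was 1219 bp for HA-BAZ2B and 639 bp for WT. Along the width of the domains, turned so that the H3K4me3 summit lay in the first 50% of the width, HA-BAZ2B peaks covered 95.7% of the domains that had one at 42.5% of the width and 74.6% at 92.5% of the width. WT peaks covered 61.4% of the domains that had one at 42.5% of the width and 10.4% at 92.5%. WT cover was thus highest towards the side of the H3K4me3 summit, and HA-BAZ2B cover extended over the other side as well.

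**Figure D4:**
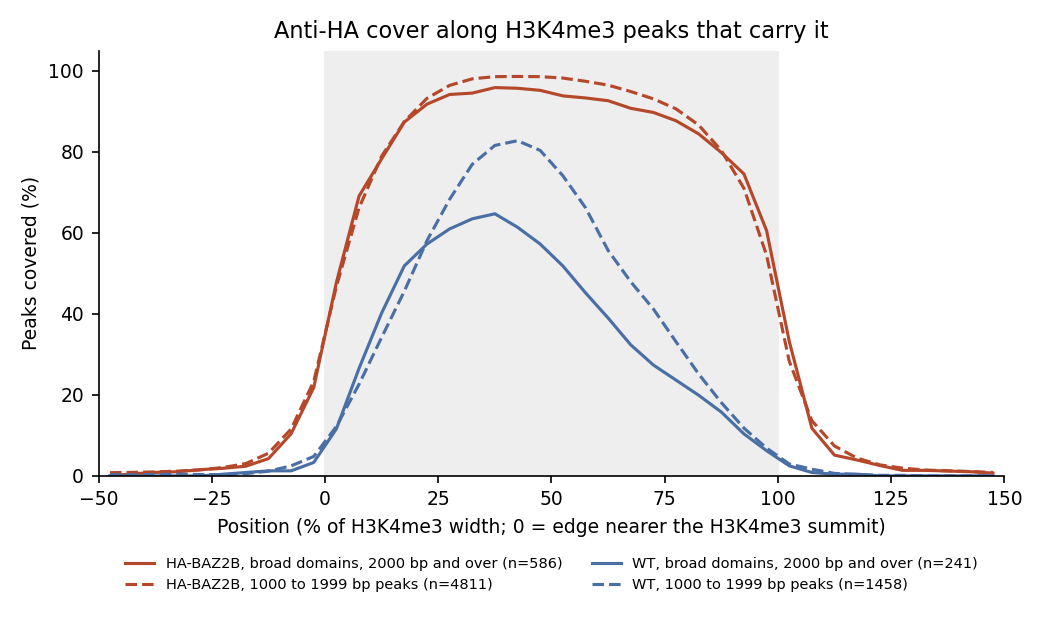
Share of H3K4me3 peaks covered by an anti-HA peak (y axis, percent) at each position along their width (x axis, percent of width, grey area inside the peak, 0 being the edge nearer the H3K4me3 summit), among peaks that carry one. HA-BAZ2B (red) covers broad domains and intermediate peaks almost alike, and WT (blue) is lower, at 61.4% of broad domains at 42.5% of the width and 10.4% at 92.5%.

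The wide HA-BAZ2B peaks were found mostly on broad domains. The HA-BAZ2B list held 509 peaks of 2000 bp and over (7.50% of 6788), and the WT list 6 (0.252% of 2381). Of the 509, 357 (70.1%, 66.0 to 74.1%) lay on a broad domain and 151 on intermediate peaks at most. The rest lay on H3K4me3 peaks under 1000 bp only. None lay outside H3K4me3 (upper bound 0.722%). The share of the whole HA-BAZ2B list outside H3K4me3 was not counted here, so this is not read as a trait of wide peaks. Of the 509, 30 joined 2 or more H3K4me3 peaks. Seen from the domains, 604 HA-BAZ2B peaks (8.90% of the list) lay on a broad domain, and 247 WT peaks (10.4% of theirs) did. Of the 604, 59.1% were 2000 bp or wider, and of the 247, 2.02% were.

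Summits were further apart in broad domains than in intermediate peaks. The strongest HA-BAZ2B peak of a domain had its summit a median of 382.5 bp (337 to 424 bp) from the H3K4me3 summit, against 92 bp (86 to 99 bp) in intermediate peaks. The distance was 337 bp in the narrowest of the 4 classes of broad domains and 799.5 bp in the widest. As a percent of the width, the median was 16.8% in broad domains and 6.73% in the intermediate peaks. In 171 of 586 domains (29.2%, 25.5 to 33.0%) the 2 summits lay within 100 bp, and in 228 (38.9%, 34.9 to 43.0%) they lay over 500 bp apart, as they did in 8.44% of the intermediate peaks. The H3K4me3 summit itself lay off centre in broad domains, at a median of 33.3% of the width from the nearer edge, and at 40.5% in the intermediate peaks.

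The WT summit followed the same order, with a median distance of 268 bp (163 to 378 bp) from the H3K4me3 summit in broad domains and 85 bp in intermediate peaks. In the 230 domains with both kinds of peak, the HA-BAZ2B summit lay a median of 347.5 bp (281 to 407 bp) from the H3K4me3 summit, and the WT summit 256 bp (143 to 364 bp). These 2 intervals overlap, and the WT summit was the nearer one in 127 of 230 domains (55.2%, 48.5 to 61.8%). HA-BAZ2B and WT summits lay a median of 520 bp from each other in these domains, and within 100 bp in 41 of them (17.8%, 13.1 to 23.4%). In intermediate peaks with both, that distance was 231.5 bp, and 34.2% lay within 100 bp. In the same 230 domains, a median of 100% of the WT covered length lay inside HA-BAZ2B peaks, with a lower quartile of 87.9% and a minimum of 0%. HA-BAZ2B peaks covered a median of 92.2% of these domains, so most stretches of them would lie inside an HA-BAZ2B peak. In intermediate peaks with both, the median was also 100%, with a lower quartile of 91.5%.

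Domains with a higher H3K4me3 fold enrichment tended to have a higher HA-BAZ2B one. Fold enrichments of H3K4me3 and HA-BAZ2B at the same domain had a Spearman rho of 0.64 over 586 domains, and 0.77 over 4811 intermediate peaks. For WT the rho was 0.44 over 241 domains and 0.14 over 1458 intermediate peaks. Between the HA-BAZ2B and the WT fold enrichments of the 230 domains with both, rho was 0.13. Fold enrichment also went with width, with a rho of −0.63 between width and H3K4me3 over all 897 domains and −0.48 between width and HA-BAZ2B over 586. The peaks of a list share 1 library, and these values are descriptions. The median HA-BAZ2B fold enrichment was 5.60 in broad domains and 8.55 in intermediate peaks, and the median WT fold enrichment 6.23 in broad domains and 6.55 in intermediate peaks. These put the median domain at percentile 14.4 of the HA-BAZ2B list and 45.1 of the WT list. The HA-BAZ2B fold enrichment was 5.58 in domains that also had a WT peak and 5.62 in those that did not.

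The 10 widest domains lay on 7 chromosomes, and 5 of them carried HA-BAZ2B and 4 WT. Over all broad domains the shares were 65.3% and 26.9%, and of the 100 widest, 70 carried HA-BAZ2B and 41 WT. The widest, at 15q23 (chr15:69109855-69113842), spanned 3988 bp with an H3K4me3 fold enrichment of 2.87 and had no anti-HA peak. The second, at 15q26.3 (chr15:99190357-99194142, 3786 bp), had an HA-BAZ2B peak of 1075 bp and fold enrichment 2.74 near its left edge, which covered 28.4% of it, and a WT peak of 714 bp and fold enrichment 4.64. The domain at 13q34 (chr13:111364866-111368470, 3605 bp) was of the same kind, with an HA-BAZ2B peak of 1002 bp over 27.8% of it and a WT peak of 902 bp over 25%. In both of these domains the HA-BAZ2B and WT peaks lay at the same end.

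Other domains among the 10 widest were filled by HA-BAZ2B. The one at 17p13.1 (chr17:7744865-7748273, 3409 bp) had a single HA-BAZ2B peak of 3091 bp, fold enrichment 4.34, over 90.7% of its width with its summit 41 bp from that of H3K4me3, and no WT peak. At 15q22.31 (chr15:66993110-66996745, 3636 bp), an HA-BAZ2B peak of 2981 bp covered 82.0% and 2 WT peaks of 554 and 629 bp lay towards the left edge. At 20p13 (chr20:304888-308376, 3489 bp), 2 HA-BAZ2B peaks of 968 and 2233 bp covered 88.7%, and a WT peak of 379 bp reached into the gap between them, with its summit 13 bp from that of H3K4me3. The H3K4me3 summit of that domain thus lay in the gap of the HA-BAZ2B peaks and under the WT peak.

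**Figure D5:**
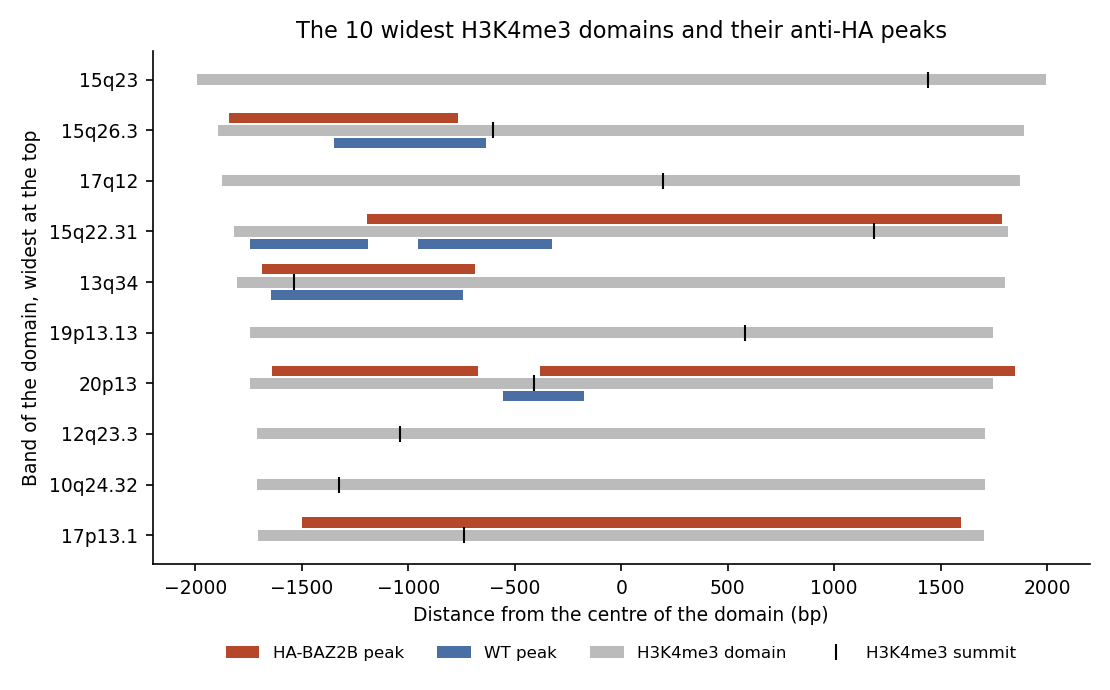
The 10 widest broad domains, widest at the top (y axis, cytogenetic band), drawn to scale by distance from the centre of the domain in bp (x axis): grey bars are H3K4me3 domains with their summit as a black tick, red bars HA-BAZ2B peaks and blue bars WT peaks. In 5 of the 10 an HA-BAZ2B peak is present, which covers 27.8% to 90.7% of the domain, and 4 have a WT peak. Over all broad domains, 65.3% have an HA-BAZ2B peak and 26.9% a WT peak.

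The 5 widest domains without HA-BAZ2B were, after 15q23, those at 17q12 (chr17:36102153-36105897), 19p13.13 (chr19:13950127-13953616), 12q23.3 (chr12:107711798-107715217) and 10q24.32 (chr10:104401843-104405260). Like 300 of all 311 domains without HA-BAZ2B, none of the 5 had a WT peak. Their H3K4me3 −log10 q ran from 19.1 to 23.9, and that of the 5 with HA-BAZ2B among the 10 widest from 16.7 to 36.0, all below the median of 41.9 over all domains. The 586 domains with HA-BAZ2B had a median H3K4me3 −log10 q of 45.6 (44.0 to 46.6), and the 311 without it 34.1 (31.2 to 35.3). Median widths lay close, at 2222.5 bp (2196 to 2253 bp) with HA-BAZ2B and 2243 bp (2194 to 2279 bp) without, and the median H3K4me3 fold enrichments were 5.67 (5.52 to 5.77) with it and 5.42 (5.28 to 5.57) without. The 230 domains with both kinds of anti-HA peak had a median −log10 q of 49.4 (46.7 to 51.9), and the 356 with HA-BAZ2B alone 43.4 (42.2 to 45.2). No domain without HA-BAZ2B had an HA-BAZ2B peak within 1000 bp of its edges (0 of 311, upper bound 1.18%), and the median distance to the nearest one was 99.9 kb. Intermediate peaks without HA-BAZ2B were near this, with 17 of 4646 (0.366%) and a median distance of 87767.5 bp. A domain without HA-BAZ2B may still hold a peak that was seen in 1 replicate only and so was left out of the list.

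The 10 domains with the strongest HA-BAZ2B peaks were 2004 to 2347 bp wide. The first was at 19q13.2 (chr19:40970164-40972280), with an HA-BAZ2B fold enrichment of 10.4 over a peak of 1626 bp, an H3K4me3 fold enrichment of 8.38 and a WT fold enrichment of 3.97. It was followed by 5q14.1 (chr5:81045707-81047710), with an HA-BAZ2B fold enrichment of 10.3 and no WT peak, and by 1q21.3 (chr1:153642702-153644727), with 9.36 for HA-BAZ2B and 5.94 for WT. The next 4 were at 17q21.1, 1p31.1, 1p22.1 and 5q35.3, with HA-BAZ2B fold enrichments of 8.46, 8.42, 8.02 and 8.01. The last 3 of the 10 were at Xq24 (8.01), 4q34.1 (7.84) and 12q13.3 (7.79). Of the 10, 6 carried a WT peak, against 39.2% of all 586 domains with HA-BAZ2B, and a difference was not tested.

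The 5 domains with the strongest WT peaks all carried HA-BAZ2B too, as did 95.4% of the 241 domains with a WT peak. They lay at 1q42.3 (chr1:235490193-235492645), with a WT fold enrichment of 11.4, and at 1q23.3 (10.8), 21q22.11 (10.3), 1q24.2 (10.3) and 10q23.2 (10.2). At these 5 domains the HA-BAZ2B fold enrichments were 4.26, 5.70, 5.20, 5.35 and 5.44, over 86.8% to 100% of the domain. Fold enrichments of the lists share no scale, and the values do not measure a difference between the lines. In 4 of the 5 the WT summit lay 13 to 48 bp from the H3K4me3 summit, and at 21q22.11 it lay 547 bp away.

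HA-BAZ2B was split into 2 or more peaks in 17 of 586 domains (2.90%, 1.7 to 4.6%), against 33 of 4811 intermediate peaks (0.686%, 0.473 to 0.962%). The share was 1.39% with only anti-HA peaks of −log10 q of at least 10, 0% with the limited list, 1.40% with a minimum width of 1500 bp and 4.65% with H3K4me3 peaks within 1000 bp joined. The median gap between the pieces was 235.5 bp, from 138 to 569 bp. Among the 16 domains with 2 pieces, 11 carried a WT peak, as did 230 of all 586 domains with HA-BAZ2B (39.2%). The widest after 20p13 were at 7q22.3 (chr7:104652812-104655794), with pieces of 811 and 2360 bp, and 11p11.2 (chr11:46141082-46143961), with pieces of 1034 and 793 bp. The only domain with 3 pieces was at 18p11.31 (chr18:5294659-5296889, 2231 bp), where HA-BAZ2B peaks of 931, 562 and 502 bp had fold enrichments of 5.47, 5.17 and 4.71 and no WT peak was listed.

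The 11 domains with a WT peak and no HA-BAZ2B peak were 1.23% of all domains (0.614 to 2.18%), near the 1.78% of all H3K4me3 peaks and the 0.994% of intermediate peaks. The 5 widest of them were at 12q13.3 (chr12:57480688-57483765, 3078 bp), 11p15.5 (chr11:832257-835246, 2990 bp), 9p13.2 (chr9:38067061-38069871, 2811 bp), 9q21.12 (chr9:73033333-73035776, 2444 bp) and 17q25.3 (chr17:79884114-79886531, 2418 bp). Their WT fold enrichments were 4.30, 3.32, 6.61, 3.53 and 3.68, and the WT peak covered 53.0% of the first and 10.0% to 20.7% of the others. HA-BAZ2B covered under 50% of the width in 34 of 586 domains (5.80%, 4.05 to 8.01%), against 2.85% (2.4 to 3.36%) of intermediate peaks. Of these 34 domains, 11 had a WT peak (32.4%), against 31.4% of the 137 intermediate peaks covered under 50%. The H3K4me3 summit lay under the HA-BAZ2B peak in 22 of the 34 (64.7%, 46.5 to 80.3%), against 75.9% of those 137. The HA-BAZ2B peaks of these 34 had a median fold enrichment of 4.67.

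Broad domains lay on all 23 chromosomes. They made up 8.16% of the H3K4me3 peaks of chromosome 17 (85 of 1042, 6.57 to 9.99%), against 5.28% in the whole list, and 3.42% on chromosome 22 (13 of 380, 1.83 to 5.78%). HA-BAZ2B lay on 76.5% (66.0 to 85.0%) of the broad domains of chromosome 17, on 81.8% (64.5 to 93%) of the 33 on chromosome 16 and on 43.1% (29.3 to 57.8%) of the 51 on chromosome 6. WT peaks lay on 40.0% of the domains of chromosome 17, 33.3% on chromosome 16 and 7.84% on chromosome 6. Intermediate peaks on the same 3 chromosomes had HA-BAZ2B shares of 60.1%, 54.7% and 45.5% and WT shares of 21.5%, 15.5% and 8.71%. On chromosome 6 the WT share was thus low in both width classes, and the HA-BAZ2B share of its broad domains had an interval that holds the 45.5% of its intermediate peaks.

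The densest stretch of 1 Mb was at 17p13.1 (chr17:7000001-8000000), where 8 of 38 H3K4me3 peaks were broad. All 8 carried HA-BAZ2B, which covered 63.2% to 97.1% of them with fold enrichments of 3.95 to 7.39, and 4 carried WT, which covered 10.9% to 48.7%. The next were 4 stretches with 5 broad domains each. HA-BAZ2B lay on all 5 at 19q13.2 (chr19:41000001-42000000) and on 2 of 5 at 19p13.3 (chr19:1000001-2000000). At 17q25.3 and at 11p15.5 it lay on 3 of 5, and over all broad domains on 65.3%. Broad domains were otherwise placed much like intermediate peaks. The nearest other H3K4me3 peak lay a median of 31.9 kb away, against 33.6 kb for intermediate peaks, and within 1000 bp in 2.79% of broad domains and 2.53% of intermediate peaks. Light Giemsa bands held 64.3% of broad domains (61.1 to 67.5%) and 61.7% of intermediate peaks (60.7 to 62.7%). Only 1 pair of neighbouring broad domains lay within 5000 bp of each other and 39 pairs within 50000 bp.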

How the data were processed

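Per the labels, the authors kept a peak found in at least 2 of 3 replicates, with rows from the largest replicate file. Bowtie2 2.4.5, SAMtools 1.15.1, Picard, bedtools and MACS2 2.1.4 on hg19 (and dm6) are named in the submitters' processing notes. The sources used here give no peak-caller settings and no control. The deposited fold enrichment is a ratio over the authors' background estimate for that library, and the deposited −log10 q is not scaled between lists. The deposited score is that −log10 q times 10 and was not used. For 2 of the 3 H3K4me3 libraries the antibody label is spelled with a different final digit, and groups follow the titles.

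An overlap needed 1 bp. Cover is the summed overlap of anti-HA peaks over the domain's width, and the strongest anti-HA peak of a domain gave its summit and fold enrichment. Scripts ran in Python 3.11.15 with scipy 1.17.1 (exact intervals), pandas 2.3.3 and numpy 2.4.6, with bands from circlize 0.4.16 and hg19 lengths from GenomeInfoDb 1.38.1, and were tested on simulated peaks. Alternatives varied the width limit, the overlap, the thresholds and the list length. The domains, the width classes and the rules for naming domains were chosen with earlier results of these data known. Domains named are the 10 widest, the 10 of highest HA-BAZ2B and 5 of highest WT fold enrichment, the 5 widest without HA-BAZ2B, the 5 widest with WT alone and those with 3 HA-BAZ2B peaks. The domains with 2 pieces and the densest 1 Mb stretches were chosen after their values were seen. Gene names, planned gene lists and sequences were not used here, since the gene table at hand is on another build.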

Additional observations from a re-analysis of the deposited data

Results flagged for a closer look

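H3K4me3 peaks of 2000 bp and over also occurred outside chromosomes 1 to 22 and X, in rows that none of the comparisons used. There were 6 among the 633 rows there (0.948%, 0.349 to 2.05%), against 5.28% on chromosomes 1 to 22 and X, on 5 reference sequences and from 2003 to 3514 bp wide. They were singled out because these rows are outside the comparisons, not by a test. An HA-BAZ2B peak lay on 5 of them and a WT peak on 2.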

How the results depend on the processing

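Of 83 alternative values, 55 stayed within the spread of the value reported, 27 moved and 1 changed sign. For shares, differences and medians the spread was the 95% interval. For the number of domains it was a set range of 598 to 1345.5, and for rho a set 0.1 either way. A minimum width of 1500 bp gave 3793 domains, a WT share of 22.4%, a median HA-BAZ2B cover of 91.6%, a share of split domains of 1.40%, a median summit distance of 188.5 bp and a rho of width and HA-BAZ2B covered length of 0.68. A minimum of 2500 bp gave 205 domains, cover of 84.7%, a summit distance of 562 bp and a rho of 0.25. A minimum of 3000 bp gave 35 domains, cover of 81.5%, a summit distance of 799.5 bp and a rho of 0.27. The HA-BAZ2B share was then 74.3% and the WT share 42.9%. These were 22.2 and 26.5 points over all peaks of 1000 bp to under 3000 bp, a wider class than the intermediate peaks. Joining H3K4me3 peaks within 1000 bp gave an HA-BAZ2B share of 62.0%, cover of 88.0%, a split share of 4.65% and a rho of 0.26. Keeping anti-HA peaks of −log10 q of at least 10 gave a WT share of 18.2% and a split share of 1.39%. With the HA-BAZ2B list limited to 2381 peaks, those of −log10 q of at least 34.0, its share was 14.7%, the difference from intermediate peaks −7.07 points, cover 92.1% and the split share 0%; the cause was not tested. A 50% overlap, a summit inside the domain, an anti-HA −log10 q of at least 5 and an H3K4me3 −log10 q of at least 10 moved none of the values. No paired analysis was possible because each list holds the rows of 1 library, with no value per replicate, and for the same reason no replicate could be left out. Alternatives that need a gene annotation of hg19 were not run. Library depth is unknown, so a domain without a listed peak is one where none was called and not one shown to lack signal.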
